A study of Mus musculus with 6 samples.

Results

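The genes described here are 39 imprinted genes of the mouse at 18 loci, out of 51911 rows of a gene count table from gastrocnemius, the large calf muscle. They were selected with measured values of the same contrast in view: the list was drawn up because H19, Igf2, Zdbf2 and Peg10 were higher in the transgenic muscle. All member values of that contrast are therefore a description, given without a test. Each of the 39 was matched by Ensembl ID to its own row. The study set HSA-PGC-1a3 transgenic mice (labelled alpha3_tg) beside wild-type mice, with 3 libraries of each genotype, all from males, and asked how the muscle transcriptome differs. HSA is the human skeletal actin promoter, active in skeletal muscle fibres, and PGC-1a3 is a splice form of PGC-1alpha, a coactivator of transcription encoded by Ppargc1a. The labels give neither the age and strain of the animals nor the number of founder lines, and they do not say that libraries came from separate animals, so the spread between libraries may be technical.

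Imprinted genes are expressed mainly from the allele inherited from 1 parent, because DNA methylation laid down in the egg or sperm marks a control region of each locus. The genes sit in clusters, and a single control region often sets the expression of several neighbours, some from the maternal and some from the paternal chromosome. Many of them act on growth: Igf2 promotes it, while H19, Igf2r, Cdkn1c and Grb10 are known to restrain it. H19 and Igf2 share enhancers and are both high in fetal muscle. The counts hold no allele information, so every level below is the sum of both parental copies, and the allele named with a gene is background knowledge of the locus.

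Sequences of a few members are shown first, all from RefSeq on GRCm38.p6 and written 5′ to 3′ on the strand of the gene. They are a choice and not a ranking by change: Igf2, Ppp1r9a and Dlk1 have windows that are not printed. The first exon of H19 holds the microRNA gene Mir675 (84 exonic bases on the same strand), and its 2 mature products have different seeds, bases 2 to 8, in capitals. They lie at chr7:142577112-142577133 (5p) and chr7:142577078-142577099 (3p), on the minus strand.
miR-675-5p: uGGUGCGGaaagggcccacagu
miR-675-3p: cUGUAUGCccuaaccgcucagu
From the promoter table, 49 windows were used, which belong to 33 of the 39 members. No window was used for H19, Cdkn1c, Rtl1, Peg10, Sgce and Impact. Zdbf2, the member with the highest fold change, has 2 annotated starts. The 250 bases before the upstream start (chr1:63200108-63200357, plus strand) hold 3 copies of TGCCGC, the letters bound by Zfp57 when the CpG is methylated, here in capitals on either strand.
Zdbf2 upstream start: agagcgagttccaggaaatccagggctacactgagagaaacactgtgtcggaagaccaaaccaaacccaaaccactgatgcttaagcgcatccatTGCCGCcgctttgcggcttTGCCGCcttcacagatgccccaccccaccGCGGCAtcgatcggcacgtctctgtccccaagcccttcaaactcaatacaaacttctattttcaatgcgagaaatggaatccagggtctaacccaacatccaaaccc
The 250 bases before the second start (chr1:63273019-63273268, plus strand) hold no TGCCGC and 26 CpG dinucleotides, in capitals, with 74.4% G and C.
Zdbf2 second start: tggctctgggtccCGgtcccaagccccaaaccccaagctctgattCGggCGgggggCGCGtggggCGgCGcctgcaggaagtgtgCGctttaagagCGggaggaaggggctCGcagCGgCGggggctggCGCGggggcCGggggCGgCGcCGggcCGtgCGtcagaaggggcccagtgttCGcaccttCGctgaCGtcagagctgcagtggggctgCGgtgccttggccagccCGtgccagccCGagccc
Peg3 and Usp29 are transcribed away from each other, and 146 bases lie between their annotated starts (chr7:6730432-6730577, shown on the strand of Peg3, CpG in capitals, 5 in all).
Peg3 to Usp29: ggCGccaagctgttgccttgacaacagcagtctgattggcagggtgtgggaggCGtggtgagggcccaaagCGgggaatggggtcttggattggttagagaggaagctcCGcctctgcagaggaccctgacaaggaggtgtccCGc
Snrpn and Snurf share a start, and the 250 bases before it (chr7:60005200-60005449, minus strand) are AT-rich, with 36.8% G and C and 3 CpG dinucleotides, in capitals. These bases hold no TGCCGC, but the window used below, which continues past the start, holds 1 copy and 7 CpG dinucleotides, counting both strands for TGCCGC. Snrpn has other annotated starts, which are not printed. The pair of Snrpn and Snurf was lower in the transgenic muscle and is shown beside Zdbf2 and Peg3, which were higher.
Snrpn and Snurf: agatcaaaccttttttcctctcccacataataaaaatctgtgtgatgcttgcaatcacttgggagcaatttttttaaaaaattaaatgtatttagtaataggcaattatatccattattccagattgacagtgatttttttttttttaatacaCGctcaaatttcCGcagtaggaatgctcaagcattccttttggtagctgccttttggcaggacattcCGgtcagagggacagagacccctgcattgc

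Windows of 300 bases ran from 250 before to 50 after a start. Members had a median of 15 CpG dinucleotides, against 7 in all 32851 windows of the table, and 57.7% against 52.7% G and C. All windows include chromosome 18, and the member windows do not, so Impact, which lies there, could have none among them. TGCCGC was found on either strand in 14 of the 49 member windows (28.6%) and in 11.6% of all windows. The windows are not independent: Snrpn and Snurf share 1, Mest and Gnas each have 2 that overlap, and Peg3 and Usp29 share 263 bases. CAGCTG, an E-box bound by MyoD, was in 4 member windows (8.16%, against 16.3% of all). AAGGTCA, a site of the estrogen-related receptors that PGC-1alpha coactivates, was in 1 (2.04%, against 4.72%). GCCATNTT, a site of YY1, was in 1 (2.04%, against 6.05%), GCGCATGCG, a site of NRF1, in 3 (6.12%, against 1.75%) and TATAAA in 11 (22.4%, against 13.6%), each on either strand. A match of letters is a description of the window and shows no binding.

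Total counts ran from 25532146 to 40846872 per library, and 3 counts correspond to 0.0804 to 0.134 CPM (counts scaled to library size, with TMM factors). Ppargc1a, which checks the labels, was at 3103, 2449 and 3238 CPM with the transgene and at 51.1, 52.1 and 53.5 CPM without it. Its counts do not separate transgene from endogenous gene. Genes tested with edgeR over the whole table numbered 16593, and 8419 of them (50.7%) passed an adjusted p of 0.05, the threshold meant by "called" below, with 25.5% of all tested genes called higher and 25.2% called lower in the transgenic muscle. Scaling by library totals alone moved the all-gene median log2 fold change by 0.40, from -0.016 to 0.38, and took the share of calls that were higher from 50.2% to 85.7%. Small differences below are therefore relative to TMM scaling. Library totals alone called 8676 of the 16593 genes higher and 1448 lower. Counts given below for library totals stand beside these numbers and not beside the TMM shares. Where values are given per library, transgenic libraries 1, 2 and 3 come first and wild-type libraries 1, 2 and 3 second.

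Of the 39 imprinted genes, 33 had enough counts to be tested. Among them 11 were called higher, 8 were called lower and 14 were not called in the transgenic muscle. The 11 are H19, Igf2, Zdbf2, Peg10, Peg3, Ppp1r9a, Impact, Copg2, Commd1, Grb10 and H13, and the 8 are Dlk1, Snrpn, Snurf, Blcap, Plagl1, Gnas, Zrsr1 and Zim1, where Snrpn and Snurf share fragments and are counted separately. At least 2-fold higher were H19, Igf2, Zdbf2, Peg10, Peg3 and Ppp1r9a, 6 members, where 6.29% of all tested genes were called at least 2-fold higher. Dlk1 was the only called member at least 2-fold lower. CPM ranges of the genotypes were separate for 21 of the 33, and for 59.6% of all tested genes. The median log2 fold change was 0.032 over the 33 and -0.016 over all genes. Nothing is read from these counts, since the same contrast chose the list. Leaving aside H19, Igf2, Zdbf2 and Peg10, the other 29 tested members had 7 higher and 8 lower calls and a median of -0.11. With library totals alone, 18 members were called higher and 4 lower. In these bulk libraries fewer cells of a type and less RNA per cell cannot be told apart.

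**Figure D1:**
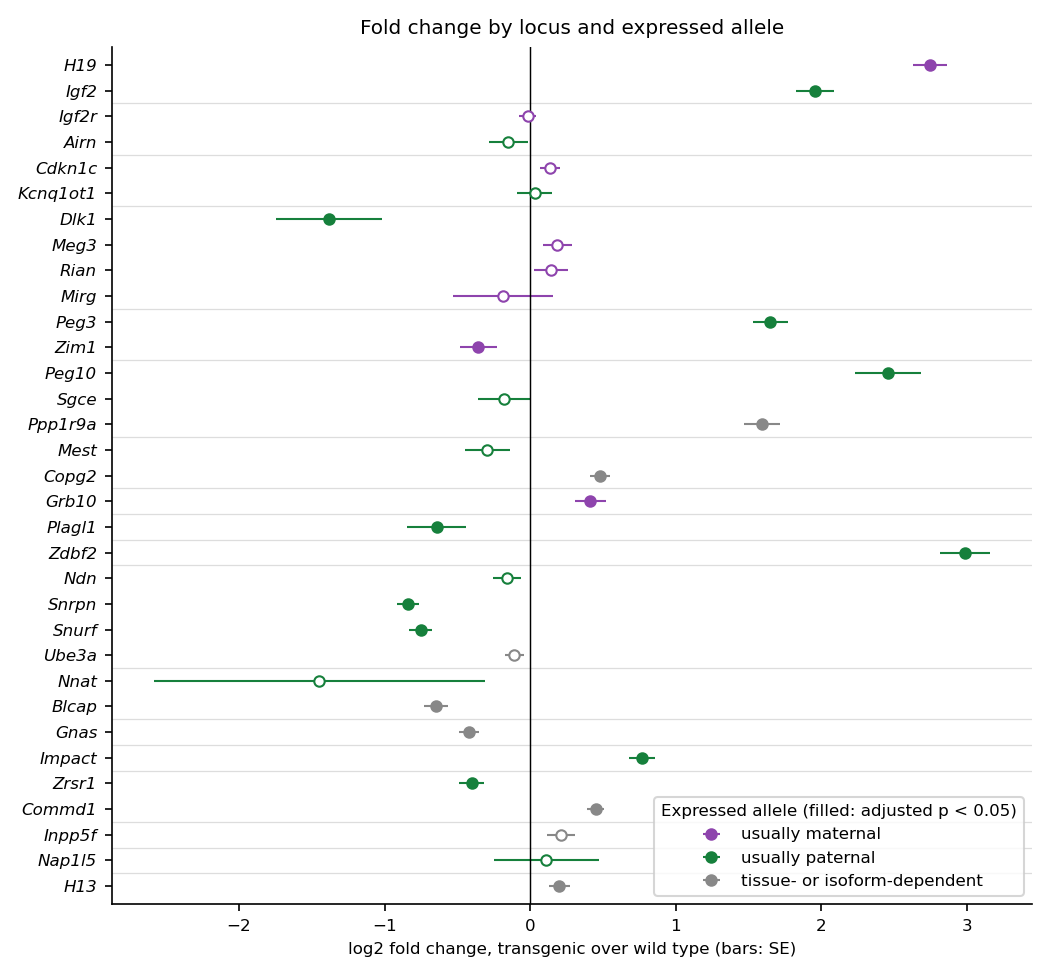
Log2 fold change (transgenic over wild type, TMM scaling, bars are SE) of the 33 tested imprinted genes, grouped by locus with thin lines between loci, coloured by the allele usually expressed and filled where the adjusted p was under 0.05. 6 genes lie above 1, from Ppp1r9a at 1.59 to Zdbf2 at 2.99, and members of the same locus can differ widely, as Peg10 and Sgce do.

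H19, the maternally expressed noncoding RNA at the distal end of chromosome 7 (142575529 to 142578143, GRCm38, minus strand), had the highest level per kilobase of exon of all members in both genotypes. In CPM it stood at 2271, 2443 and 3028 CPM with the transgene and at 359, 376 and 418 CPM without it. All 3 transgenic libraries were more than 5 times as high as any wild-type library, and the log2 fold change was 2.75 (SE 0.11), or 6.71-fold. H19 held 0.260%, 0.280% and 0.347% of all counts with the transgene and 0.0318%, 0.0320% and 0.0367% without it. Per kilobase of exon its wild-type level ranked 242 and its transgenic level 38 among 16546 genes. Fragments over Mir675 are also fragments of H19, so the 2.82 (SE 0.12) of the Mir675 row repeats the H19 value and says nothing about mature miR-675.

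Igf2, the paternally expressed growth factor (142650766 to 142666816) that starts 88.7 kb from the H19 start, was at 61.2, 83.8 and 78.2 CPM with the transgene and at 20.4, 20.3 and 16.7 CPM without it. All 3 transgenic libraries lay above the wild-type libraries, with a log2 fold change of 1.96 (SE 0.13). The ratio of the pair differed as well. H19 counts divided by Igf2 counts, a ratio that no scaling can change, were 37.1, 29.2 and 38.7 with the transgene and 17.6, 18.6 and 25.0 without it. Per kilobase, H19 exceeded Igf2 by 41.0 to 58.2 times in wild-type and by 67.8 to 90.1 times in transgenic libraries. The antisense gene Igf2os, which shares 98 exonic bases with Igf2 on the opposite strand, had a log2 fold change of 2.96 (SE 0.30). Its counts were not separated by strand, and its mean was 1.88 CPM against 0.243 CPM.

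Genes on the other side of H19 went the other way. Nctc1, a muscle noncoding RNA whose start lies 19.5 kb from that of H19, fell in the transgenic muscle from 95.3, 111 and 103 CPM to 55.8, 59.4 and 53.6 CPM (log2 fold change -0.88, SE 0.07, edgeR adjusted p = 2.08e-06). The fast-fibre troponin genes Tnnt3 (-1.18, SE 0.07) and Tnni2 (-1.27, SE 0.07), the lymphocyte-specific protein gene Lsp1 (-0.79, SE 0.07) and Prr33 (-0.70, SE 0.07) were called lower too, while Mrpl23 (-0.12, SE 0.18), which lies between them, and Ctsd (-0.12, SE 0.06) were not called. The neighbours were named after their values were seen. H19 counts were 40.7, 41.1 and 56.5 times those of Nctc1 with the transgene and 3.77, 3.38 and 4.04 times without it, so the step at H19 does not depend on the scaling.

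**Figure D2:**
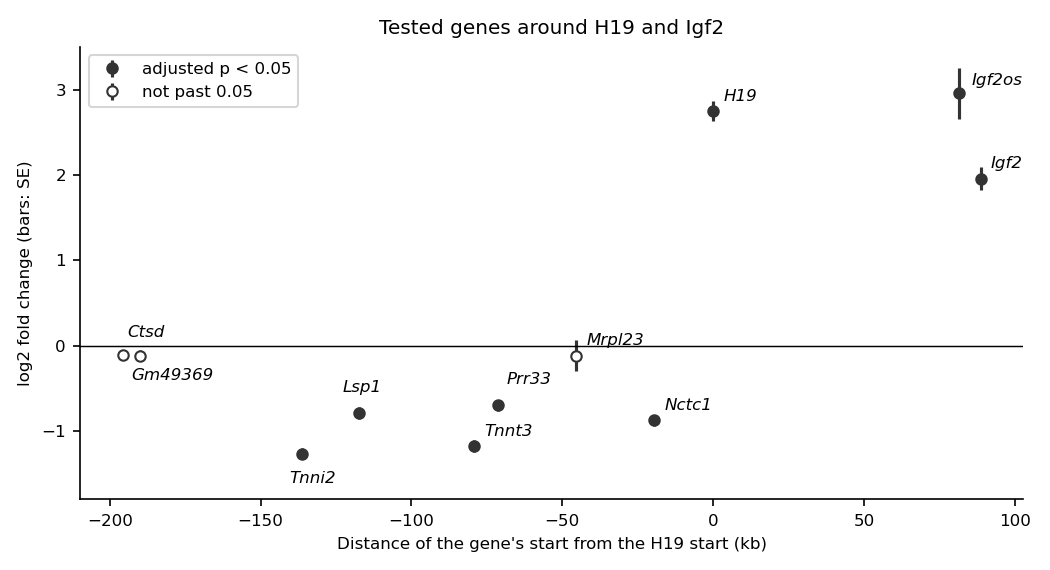
Log2 fold change (bars are SE) of the tested genes within 200 kb of H19 or Igf2, by the distance in kb of each gene's start from the H19 start along the chromosome. H19, Igf2 and Igf2os lie between 1.96 and 2.96, while 5 of the genes on the left lie between -0.70 and -1.27 and 3 at -0.12. Small RNA genes inside H19 are left out.

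Zdbf2, a paternally expressed gene on chromosome 1 (63273265 to 63314576) that encodes a protein with a DBF-type zinc finger, had the highest fold change of all members. Its level was 12.3, 15.5 and 17.0 CPM with the transgene and 1.52, 2.27 and 1.74 CPM without it, a log2 fold change of 2.99 (SE 0.17), or 7.93-fold. In wild-type muscle it was among the scarcer members, at 0.146 CPM per kilobase, behind 32 others, and the groups were far apart. Adam23 and Gpr1, which flank it and are imprinted in some tissues, were not called, at -0.51 (SE 0.22) and 0.18 (SE 0.42). Of the 7 tested genes within 200 kb of Zdbf2, 3 were called higher and 2 lower, where 25.5% and 25.2% of all tested genes were. None of the 5 had a log2 fold change above the 1.16 of Gm20342. Of the 2 starts printed above, the upstream 1 lies outside the annotated gene, which begins at 63273265. The counts cannot say which start was used.

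At the Peg10-Sgce locus on chromosome 6, Peg10 and Ppp1r9a were higher and Sgce was not called. Peg10 (4747306 to 4760517), a paternally expressed gene derived from a retrotransposon and needed for the placenta, was at 7.20, 12.8 and 10.5 CPM with the transgene and at 1.65, 2.13 and 1.69 CPM without it. Its log2 fold change was 2.46 (SE 0.23), with transgenic library 1 the lowest of its group and still more than 3 times any wild-type library. Sgce, the epsilon-sarcoglycan of the muscle membrane, lies head to head with Peg10 on the opposite strand and is expressed from the same allele. Yet it ran from 5.49 to 9.24 CPM with the transgene and from 7.44 to 9.10 CPM in wild-type muscle, and the groups overlapped (-0.18, SE 0.18). Peg10 counts divided by Sgce counts were 0.779, 1.66 and 1.91 against 0.188, 0.234 and 0.228. Ppp1r9a (4902917 to 5165661), which encodes the actin-binding scaffold neurabin and is maternally expressed in some tissues only, was at 12.6, 14.0 and 15.5 CPM against 5.46, 4.20 and 4.37 CPM, a log2 fold change of 1.59 (SE 0.13). Other genes of the cluster fell: Pon3, a paraoxonase (-1.30, SE 0.08, edgeR adjusted p = 2.74e-07), and Asb4, an ankyrin-repeat protein (-0.98, SE 0.09, edgeR adjusted p = 6.01e-06). Casd1 and Pon2 were not called, at -0.040 and 0.094.

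The Peg3 locus at the proximal end of chromosome 7 held a higher and a lower member, the latter not with library totals alone. Peg3 (6703892 to 6730431), a paternally expressed zinc-finger gene that marks several stem cell types including muscle satellite cells, was at 72.9, 57.7 and 60.6 CPM with the transgene and at 23.0, 20.4 and 17.5 CPM without it, a log2 fold change of 1.65 (SE 0.12). Zim1, the adjacent maternally expressed zinc-finger gene, was at 4.77, 5.20 and 4.26 CPM against 6.11, 5.76 and 6.33 CPM. The groups did not overlap for either gene, and Peg3 counts were 15.3, 11.1 and 14.2 times those of Zim1 with the transgene and 3.77, 3.54 and 2.76 times without it. The Zim1 difference was small (-0.35, SE 0.12). Its call ended without transgenic library 1 (-0.34) or 3 (-0.27) or wild-type library 1 (-0.36) or 3 (-0.33), without both libraries numbered 1 (-0.35) or 3 (-0.24), without a filter on low counts (-0.32) and in DESeq2's Wald test (-0.35), and with library totals alone Zim1 turned to 0.041. Usp29, a ubiquitin protease gene that shares the stretch printed above with Peg3, had 25 counts over the transgenic and 26 over the wild-type libraries and was not tested.

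**Figure D3:**
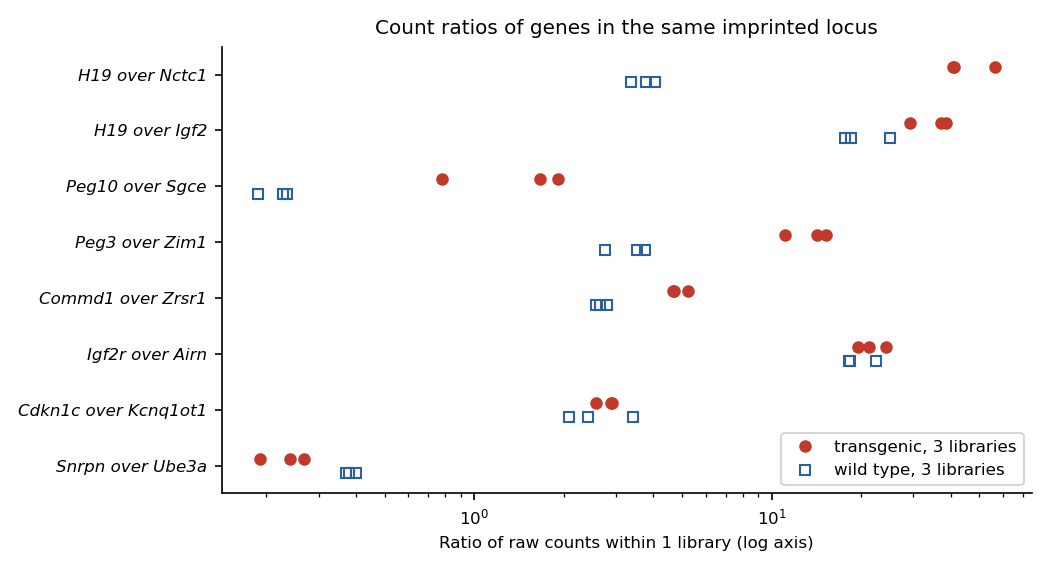
Raw count of 1 gene divided by that of a neighbour in the same library, on a log axis, for 8 pairs within imprinted loci; filled circles are the 3 transgenic and open squares the 3 wild-type libraries. H19 over Nctc1, Peg10 over Sgce and Peg3 over Zim1 are far apart between genotypes, while Igf2r over Airn and Cdkn1c over Kcnq1ot1 overlap.

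Smaller differences in the same direction were found at 5 more loci. Impact, a paternally expressed inhibitor of the amino-acid sensing kinase GCN2 on chromosome 18, was at 31.3, 32.9 and 37.8 CPM against 20.0, 21.4 and 18.4 CPM (0.77, SE 0.09). Copg2, a coat protein of Golgi vesicles, was at 30.5, 33.7 and 32.5 CPM against 24.0, 22.7 and 22.7 CPM (0.48, SE 0.07). Commd1, which takes part in endosomal recycling and copper handling, was at 57.5, 57.4 and 60.2 CPM against 41.2, 45.1 and 41.7 CPM (0.45, SE 0.06). For each of these 3 genes, and for Grb10 and H13 below, every transgenic library lay above every wild-type library. Grb10, a maternally expressed adaptor that dampens insulin and IGF receptor signalling in muscle, was at 52.9, 56.3 and 52.4 CPM against 41.1, 46.6 and 33.5 CPM (0.41, SE 0.11). The Grb10 call ended without both libraries numbered 1, a removal chosen after seeing the data, where the value was 0.44. H13, the signal peptide peptidase, was at 42.4, 42.6 and 46.4 CPM against 34.6, 40.0 and 39.7 CPM (0.20, SE 0.07). The H13 call ended without transgenic library 3 (0.17) and without wild-type library 1 (0.13) or 3 (0.22), without both libraries numbered 1 (0.16), 2 (0.26) or 3 (0.20), and in DESeq2's Wald test (0.20).

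Copg2 and Commd1 each overlap a paternally expressed partner on the opposite strand, and neither partner was higher. Mest, an enzyme gene that shares 912 exonic bases with Copg2, ran from 4.26 to 6.12 CPM with the transgene and from 5.90 to 7.28 CPM in wild-type muscle and was not called (-0.29, SE 0.15). Zrsr1, a splicing factor gene that lies inside Commd1 and shares 412 exonic bases with it, was lower, at 11.0, 12.2 and 12.9 CPM against 16.0, 16.1 and 15.7 CPM (-0.40, SE 0.08). Commd1 counts were 5.24, 4.69 and 4.65 times those of Zrsr1 with the transgene and 2.58, 2.80 and 2.65 times without it. Because strand was not used in counting, fragments over the shared bases entered both genes. With library totals alone Zrsr1 was at -0.0058 and not called.

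Among the lower members, Dlk1 had the widest difference and very few reads. Dlk1 (chromosome 12, 109452823 to 109463336) encodes a paternally expressed membrane ligand related to those of Notch, and its 42 counts over the transgenic and 93 over the wild-type libraries gave 0.493, 0.566 and 0.268 CPM against 1.34, 1.30 and 0.757 CPM. The groups did not overlap, and the log2 fold change was -1.38 (SE 0.36), or 2.61-fold lower. Its call ended without both libraries numbered 1, where the value was -1.35. The maternally expressed noncoding RNAs of the same locus were not called: Meg3 ran from 23.3 to 26.2 CPM against 18.9 to 24.4 CPM (0.19, SE 0.10), Rian from 8.45 to 9.75 CPM against 7.31 to 9.62 CPM (0.14, SE 0.12) and Mirg from 0.633 to 0.697 CPM against 0.535 to 1.09 CPM (-0.18, SE 0.34). Meg3 was called without a filter on low counts (0.23), without wild-type library 2 (0.30) or both libraries numbered 2 (0.25), and with library totals alone (0.59), as was Rian under that scaling (0.54). Without wild-type library 2 Mirg turned to 0.26.

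Snrpn and Snurf, transcribed from a shared start at the Prader-Willi locus on chromosome 7, were both lower. Snrpn (59982495 to 60140219), which encodes the splicing protein SmN, was at 30.4, 34.4 and 28.1 CPM with the transgene and at 54.6, 55.1 and 56.5 CPM without it (-0.84, SE 0.07, 1.79-fold lower). Snurf, the upstream reading frame, was at 9.21, 9.79 and 9.46 CPM against 15.6, 16.4 and 15.9 CPM (-0.75, SE 0.08). All 216 exonic bases of Snurf are also Snrpn bases, so the pair is 1 observation and not 2. Farther along the locus 2 members were not called. Ndn, which encodes the growth suppressor necdin, ran from 7.26 to 7.79 CPM against 7.95 to 8.92 CPM (-0.16, SE 0.10), and Ube3a, the ubiquitin ligase of Angelman syndrome, from 127 to 148 CPM against 141 to 148 CPM (-0.11, SE 0.07). The genotypes did not overlap for Ndn, and they did for Ube3a. Ube3a was called lower without transgenic library 3 (-0.17) and higher with library totals alone (0.29). Ube3a shares 1803 exonic bases with the antisense transcript Snhg14, which was at 0.049 (SE 0.07) and not called. Snrpn counts were 0.240, 0.268 and 0.190 of the Ube3a counts with the transgene and 0.370, 0.378 and 0.400 in wild-type libraries.

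Blcap, Gnas and Plagl1 were lower as well. Blcap, a small membrane protein gene, was at 19.3, 20.4 and 21.2 CPM against 28.5, 35.0 and 31.6 CPM (-0.65, SE 0.08). Gnas, which encodes the stimulatory G protein alpha subunit and is expressed from both alleles in most tissues, was at 1204, 1109 and 1187 CPM against 1462, 1677 and 1549 CPM (-0.42, SE 0.07). Its row pools all Gnas isoforms and shares exonic bases with genes on the opposite strand, 1469 with Gm20721 and 988 with Nespas. Gm20721 had means of 1096 against 1461 CPM (-0.41, SE 0.07), and without strand its fragments and those of Gnas cannot be told apart. Gnas was at -0.025 and not called with library totals alone. Plagl1, a paternally expressed zinc-finger gene, was at 1.51, 1.30 and 1.61 CPM against 2.73, 2.27 and 1.92 CPM (-0.64, SE 0.20). Its call ended without transgenic library 1 (-0.64) or 2 (-0.54), without wild-type library 1 (-0.52), without both libraries numbered 1 (-0.53) or 2 (-0.57), in DESeq2's Wald test (-0.64) and with library totals alone (-0.25). Dlk1, Snrpn, Snurf and Blcap were the 4 members called lower under that scaling too.

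Nnat, the paternally expressed regulator of the calcium pump that lies inside Blcap, had the widest scatter within a genotype, with a coefficient of variation of 80.1% with the transgene and 113% without it. It was at 3.22, 1.10 and 0.723 CPM with the transgene and at 10.6, 1.99 and 1.20 CPM without it, and library 1 was the highest of each genotype. The fitted -1.45 (SE 1.14) was not called and became 0.024 without wild-type library 1. With the replicate numbers in the fit as a block, Nnat was called lower. Schwann cell markers were also highest in library 1 of each genotype, with summed levels of 296, 75.7 and 104 CPM against 241, 187 and 118 CPM. The adipocyte marker Adipoq was highest there as well, at 7.33, 1.80 and 2.81 CPM against 23.2, 3.05 and 2.23 CPM. Over 7 adipocyte markers, 1 was called lower, and the summed level ran from 142 to 178 CPM with the transgene and from 186 to 368 CPM in wild-type muscle. Summed fibroblast and progenitor markers were highest in library 1 of each genotype too, at 1506, 1369 and 1258 CPM against 1797, 1504 and 1524 CPM. So were tenocyte markers, at 485, 403 and 235 CPM against 455, 454 and 357 CPM. The sums of the other marker lists were not highest there in both genotypes. The part of fat, nerve, fibroblasts or tenocytes in the Nnat values was not tested.

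At the Igf2r and Cdkn1c loci, which pair a growth gene with a silencing RNA, no member was called under TMM scaling, but with library totals alone Igf2r (0.38), Cdkn1c (0.53) and Kcnq1ot1 (0.43) were called higher. Igf2r, the maternally expressed receptor that clears Igf2, ran from 118 to 129 CPM with the transgene and from 121 to 133 CPM without it (-0.016, SE 0.06). Airn, the antisense RNA that silences the paternal Igf2r copy, ran from 4.88 to 6.63 CPM against 5.88 to 6.68 CPM (-0.15, SE 0.14). Igf2r counts were 21.2, 19.5 and 24.3 times those of Airn with the transgene and 18.3, 18.3 and 22.5 times without it, and the groups overlapped. Cdkn1c, the maternally expressed cell-cycle inhibitor p57, ran from 35.6 to 36.9 CPM against 31.0 to 36.0 CPM (0.14, SE 0.07) and was called without wild-type library 2 (0.20) or both libraries numbered 2 (0.22). Kcnq1ot1, the silencing RNA of that domain, ran from 12.4 to 13.9 CPM against 10.5 to 14.8 CPM (0.032, SE 0.12), turning to -0.11 without wild-type library 2. Under that scaling the signs of Igf2r and Airn (0.25) turned, and Airn was not called. Inpp5f, a phosphoinositide phosphatase, ran from 10.7 to 11.2 CPM against 8.24 to 10.01 CPM (0.21, SE 0.10), and Nap1l5, a nucleosome assembly protein relative, from 0.427 to 0.766 CPM against 0.433 to 0.713 CPM (0.11, SE 0.36). Neither of these was called, and the genotypes did not overlap for Inpp5f, which was called with library totals alone (0.61).

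Too scarce for the filter on low counts were 6 members, which were not tested in the main fit. Phlda2 had 0 counts over the transgenic and 1 over the wild-type libraries, Slc22a18 35 and 26, Rtl1 9 and 12, the thyroid hormone deiodinase Dio3 37 and 26, Usp29 25 and 26, and Magel2 10 and 2. Of the 10 transgenic Magel2 counts, 7 came from transgenic library 1. At these counts no difference was detectable at this depth.

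**Figure D4:**
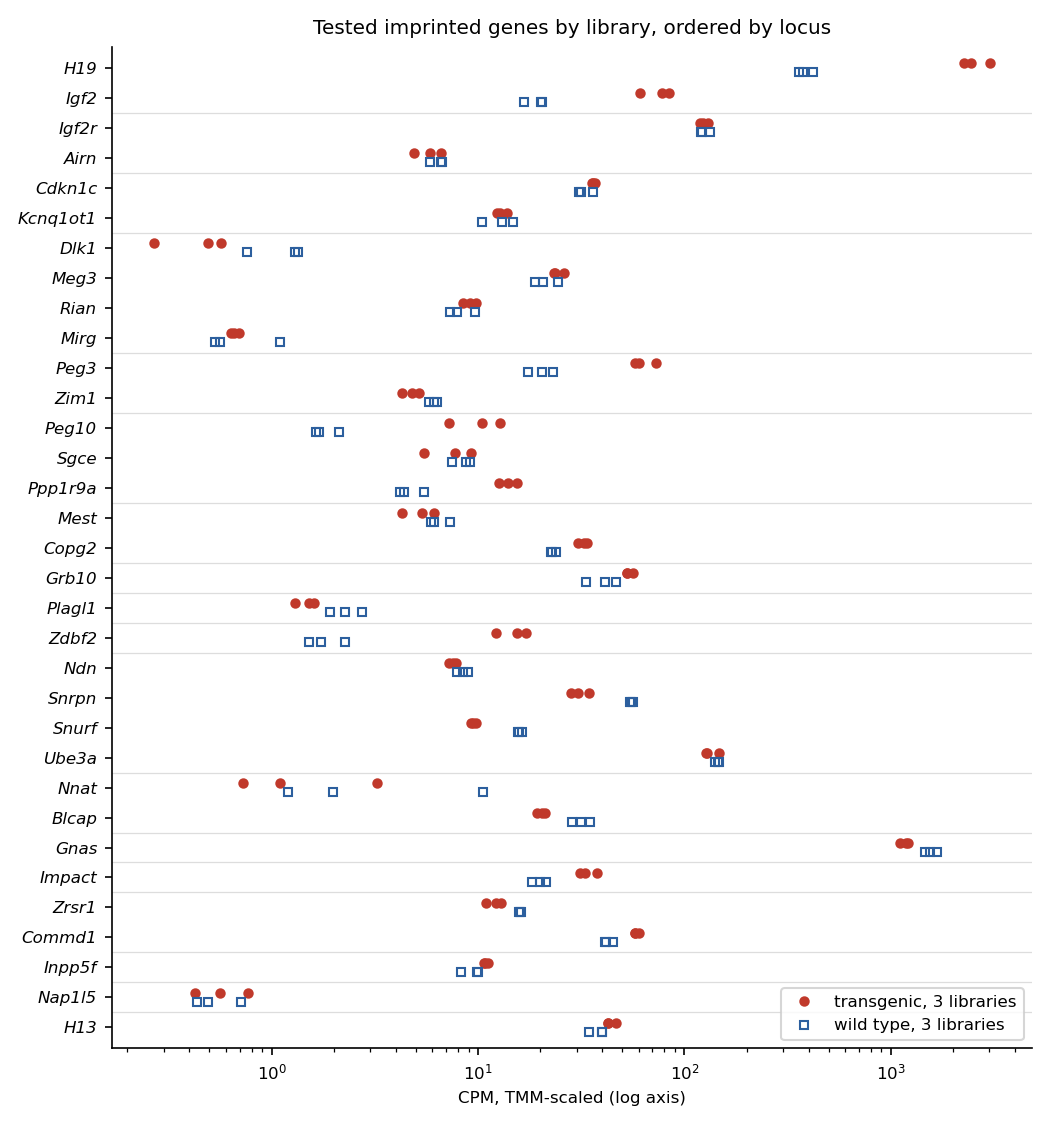
CPM (TMM-scaled, log axis) of the 33 tested imprinted genes in every library, grouped by locus with thin lines between loci; filled circles are the 3 transgenic and open squares the 3 wild-type libraries. H19, Igf2, Peg3, Peg10, Ppp1r9a and Zdbf2 show circles well to the right of the squares, and Nnat shows the widest scatter within a genotype.

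On a scale of CPM per kilobase of exon, wild-type muscle had H19 (156 ± 12.3), Gnas (140 ± 9.67) and Snurf (73.9 ± 1.84, SD, n = 3 libraries each) at the top. H19 and Gnas differed by little more than their spread. All 216 exonic bases of Snurf are also Snrpn bases, so its place is that of a short part of Snrpn and not of a separate gene. Snrpn (25.6), Cdkn1c (16.1) and Igf2r (13.4) followed, and each of these was apart from the next by more than its SD. Igf2 was in the middle at 3.34 and ranged from 10.7 to 14.6 in transgenic muscle, beside 12.7 to 13.9 for Igf2r there. At the low end, Zdbf2 (0.146) and Kcnq1ot1 (0.137) differed by less than either SD, and Mirg (0.100) was below Zdbf2 by slightly more than either SD. Libraries of a genotype agreed to a median coefficient of variation of 8.56% with the transgene and 10.4% in wild-type muscle over the tested members, against 8.19% and 8.78% over all genes.

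By the allele usually expressed, the counts below stand beside 25.5% of all tested genes called higher and 25.2% called lower, and nothing is read from them. Those shares are from TMM scaling, and library totals alone called 8676 of all tested genes higher and 1448 lower. The member counts were then 6 higher and 0 lower (maternal), 6 and 3 (paternal) and 6 and 1 (other). Of 8 tested maternally expressed members, 2 were called higher and 1 lower, with a median log2 fold change of 0.14. Of 17 paternally expressed members, 5 were called higher (Igf2, Zdbf2, Peg10, Peg3 and Impact) and 5 lower (Dlk1, Snrpn, Snurf, Plagl1 and Zrsr1, with the overlapping Snrpn and Snurf counted separately), with a median of -0.16. That median was 0.24 when library totals set the scale. Of the 8 whose imprinting depends on tissue or isoform, 4 were higher and 2 lower, with a median of 0.21. Among the 6 long noncoding RNAs, H19 was called and the other 5, Airn, Kcnq1ot1, Meg3, Rian and Mirg, were not, though with library totals alone Kcnq1ot1 (0.43), Meg3 (0.59) and Rian (0.54) were called higher too.

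Other imprinted genes and their neighbours, none of them used to choose the members, also went both ways. The counts of this list under TMM scaling stand beside 25.5% of all tested genes called higher and 25.2% called lower. Of 50 listed, 46 had a row and 31 were tested, and 8 rose and 11 fell, or 15 and 7 with library totals alone. The strongest was Slc38a4, a paternally expressed amino acid transporter, which fell from 220, 181 and 221 CPM to 36.2, 39.05 and 41.8 CPM (-2.41, SE 0.09, edgeR adjusted p = 4.41e-08). Peg13, a paternally expressed noncoding RNA inside an intron of Trappc9, fell (-1.31, SE 0.07, edgeR adjusted p = 1.35e-07), while Trappc9 itself, a subunit of a vesicle tethering complex, rose (0.82, SE 0.06, edgeR adjusted p = 9.20e-07). Trappc9 counts were 5.56, 5.39 and 6.38 times those of Peg13 with the transgene and 1.32, 1.26 and 1.39 times without it. Over all loci, 105 genes within 200 kb of a member were tested, of which 28 were called higher and 27 lower, with a median of 0.073. Both counts lie near the shares over all tested genes. The window of 200 kb was chosen after seeing the data.

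Genes that keep or read imprints were looked at next, beside 25.5% of all tested genes called higher and 25.2% called lower under TMM scaling. Of 22 tested genes for imprint maintenance and DNA methylation, 12 rose and 3 fell, or 16 and 0 with library totals alone. The 4 with the smallest p were the cohesin subunit Smc1a (1.002, SE 0.06, edgeR adjusted p = 2.67e-07), the histone methyltransferase Setdb1 (0.94, SE 0.08, edgeR adjusted p = 2.72e-06), the chromatin remodeller subunit Mbd3 (0.51, SE 0.06, edgeR adjusted p = 3.24e-05) and the silencing factor Smchd1 (0.57, SE 0.07, edgeR adjusted p = 6.22e-05). Setdb1 shares 249 exonic bases with Gm37500. Zfp57, which binds TGCCGC, was at 0.460 to 0.830 CPM with the transgene and 0.607 to 0.936 CPM in wild-type muscle and was not called (-0.22, SE 0.33). Named for their roles after their values were seen, the maintenance methyltransferase Dnmt1 (0.57, SE 0.09) and the corepressor Trim28 (0.48, SE 0.07) rose, and the de novo methyltransferase Dnmt3a fell (-0.44, SE 0.06), though not with library totals alone (-0.041). Ctcf, which insulates Igf2 from its enhancers on the maternal copy, was at 0.14 (SE 0.05, edgeR adjusted p = 0.0473), a call that ended in 10 of the 16 other settings tried.

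The TMM counts of the lists that follow also stand beside 25.5% of all tested genes called higher and 25.2% called lower. Of 14 Polycomb genes, 5 rose and 4 fell, or 10 and 1 with library totals alone, led by Ring1 (0.86, SE 0.06, edgeR adjusted p = 1.18e-06) and Bmi1 (-0.72, SE 0.07, edgeR adjusted p = 6.32e-06). Among 9 tested receptors, binding proteins and mediators of Igf2, none rose and 4 fell, though scaling by library totals gave 2 higher and 1 lower. The insulin receptor Insr, which also binds Igf2, fell from 118, 117 and 119 CPM to 77.4, 74.9 and 73.6 CPM (-0.65, SE 0.05, edgeR adjusted p = 2.04e-06), and Igf1r was not called (-0.20, SE 0.09). Of 8 tested sarcoglycan and dystrophin partners of Sgce, 5 fell, led by sarcospan, Sspn (-0.87, SE 0.06, edgeR adjusted p = 9.01e-07), but scaling by library totals gave 3 higher and 1 lower. Of 8 muscle regulators known to act on H19 and Igf2, 2 rose and 2 fell, or 6 and 0 with library totals alone. Myog, the differentiation factor myogenin, rose from 3.77, 2.91 and 3.70 CPM to 6.94, 12.3 and 13.2 CPM (1.66, SE 0.26, edgeR adjusted p = 0.000987), and Myod1 was not called (0.37, SE 0.20).

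Markers of other cells in the muscle moved with genotype for some types. Their counts under TMM scaling stand beside 25.5% of all tested genes called higher and 25.2% called lower. Satellite cell markers had 3 of 8 tested higher and 2 lower (6 and 0 with library totals alone), with summed levels of 2740 to 2976 CPM with the transgene and 3747 to 4314 CPM in wild-type muscle, mostly Des, which fibres also express. Pax7, their defining gene, was at 4.34, 5.50 and 5.95 CPM against 3.29, 4.15 and 3.92 CPM. Markers of regenerating or embryonic fibres had 1 of 6 higher and 2 lower, with sums of 78.6 to 121 CPM against 98.5 to 127 CPM, and embryonic Myh3 was lower (-0.86, SE 0.16). Fibroblast and progenitor markers had 4 of 10 lower (1258 to 1506 CPM against 1504 to 1797 CPM), endothelial markers 8 of 8 lower (396 to 429 CPM against 507 to 542 CPM) and smooth muscle and pericyte markers 7 of 7 lower (625 to 692 CPM against 993 to 1065 CPM). These lower calls were made under TMM scaling: with library totals alone they were 0 of 10, 0 of 8 and 4 of 7, and 3 of the 10 fibroblast and progenitor markers were called higher. Macrophage markers had 1 of 7 called (72.6 to 82.9 CPM against 54.8 to 85.1 CPM), Schwann cell markers 0 of 8 (75.7 to 296 CPM against 118 to 241 CPM) and tenocyte markers 0 of 6 (235 to 485 CPM against 357 to 455 CPM). Mature fibre genes had 5 of 7 lower and 1 higher, with sums of 76050 to 77489 CPM against 146390 to 153860 CPM. Pax3 and Chrng were too scarce for the filter on low counts of the main fit, and no marker was at 0 in all 6 libraries. The part of cell composition in the imprinted gene values was not tested.

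Among the 39 genes, 10 are in the authors' deposited table of 3614 genes, all with the sign found here. Its log2 fold changes are 2.69 for H19, 1.89 for Igf2, 2.79 for Zdbf2, 2.26 for Peg10, 1.64 for Peg3, 1.57 for Ppp1r9a, 0.76 for Impact, -0.64 for Blcap, -0.86 for Snrpn and -1.18 for Dlk1, per the authors' deposited table.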

How the data were processed

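RNA from flash-frozen, pulverised gastrocnemius was sequenced in 6 libraries, 3 per genotype. Per the submitters' processing notes, the authors used STAR 2.5.0a, featureCounts 2.0.0, GRCm38.p6 and DESeq2, for which no version is given in the sources used here. The deposited counts are raw fragment counts per gene, not normalized: per the file headers, strand was ignored and a fragment over several genes counted for each. The authors' deposited table holds, for 3614 genes, a log2 fold change with its p-value and adjusted p, and no sample values.

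GENCODE M21 named 51633 of 51911 rows. Counts were analysed in R 4.3.3 with edgeR 4.0.16 (filterByExpr by genotype, TMM, robust quasi-likelihood F test, genotype as the sole term) over all 16593 genes kept, adjusted by Benjamini-Hochberg, at a threshold of 0.05. The SE follows from F, as the size of the log2 fold change over its root. Exonic length is the union of annotated exons. Precision is that of 3 libraries a genotype at totals of 25532146 to 40846872 counts, and 0 count columns were left unused. The script was tested on simulated data.

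The members and lists were chosen with earlier results of these data known. Members past the threshold are named by library, others by range. Context and marker lists name up to 4 called genes by smallest p, genes with a stated role by value, and genes sharing exonic bases with a member. Alternatives were DESeq2 1.42.0 size factors and Wald test, library totals, limma 3.58.1 voom, 2 filters, a replicate block, each library left out, and, added after seeing the data, both libraries of a number left out. No 2 libraries of a genotype were alike within sampling noise, with chi-square values of 10.5 to 26.0 for each degree of freedom. A gene of the context lists enters the list counts and is not reported here by itself.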

Additional observations from a re-analysis of the deposited data

How the results depend on the processing

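H19, Igf2, Zdbf2, Peg10, Peg3, Ppp1r9a, Impact, Copg2, Commd1, Snrpn, Snurf and Blcap kept their direction and their call under every alternative run. Over all alternatives other than library totals, log2 fold changes ran from 2.63 to 2.85 for H19 and from 2.85 to 3.19 for Zdbf2. Library totals alone gave 8676 genes called higher and 1448 lower over the whole table, and 18 and 4 imprinted genes. Among the genes reversed by them were Igf2r (0.38), Airn (0.25), Mirg (0.22), Zim1 (0.041), Sgce (0.22), Mest (0.10), Ndn (0.24), Ube3a (0.29), Igfbp4 (0.065), Sgcd (0.085), Sgca (0.12) and Myf6 (0.091), all between -0.36 and 0 under TMM. The cause was not tested. Without both libraries numbered 1, 5 imprinted genes were called lower instead of 8, with fewer libraries in the fit. Reversals among uncalled genes were Igf2r without a filter (0.022) and without both libraries numbered 3 (0.070), and, without both numbered 2, Kcnq1ot1 (-0.15), Mirg (0.30) and Nap1l5 (-0.20). With each library left out in turn, values ran from -0.047 to 0.025 for Igf2r, -0.11 to 0.14 for Kcnq1ot1, -0.36 to 0.26 for Mirg, -0.34 to 0.016 for Sgce, -2.31 to 0.024 for Nnat, -0.092 to 0.32 for Nap1l5 and -0.0058 to 0.11 for Snhg14. DESeq2's Wald test called 16 imprinted genes, 10 higher and 6 lower, dropping Zim1, Plagl1 and H13. Same-numbered libraries of the 2 genotypes correlated in their deviations by 0.106, -0.0504 and -0.140 over all tested genes, and not every library correlated best with its own. Such a correlation cannot show whether a few genes, such as Nnat, share a difference between numbers. The labels do not say what the numbers stand for. The replicate block called 8331 genes in all and 20 imprinted genes against 19, adding Nnat (-1.22). Depth limits the scarce members: a fold change of Dlk1, Mirg or Nap1l5 rests on fewer than 100 counts a genotype. The filter on low counts left 6 members out of the main fit.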
